A study of Rattus norvegicus with 4 samples.

Results

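The members described here are the gene rows whose symbol starts with Rpl or Rps followed by a digit, or with Rplp, that hold at least 100 unique molecular identifiers (UMIs, each one captured RNA molecule) over all 4 matrices. Of 25629 gene rows, 167 matched the symbol rule and 108 of these were used. They fall into 67 parent rows (the plain symbol of a ribosomal protein), 19 rows with a -ps suffix (copies named as pseudogenes), 11 rows with an l suffix (paralogs such as Rpl22l1) and 11 rows that match the symbol but name no ribosomal protein. The last kind holds the Rps6k kinases, a family named for kinases of ribosomal protein S6, and Rps19bp1. They are kept apart, and "ribosomal rows" means the other 97. Of the 59 rows not used, 21 had no UMI in any library. The members were chosen by their total UMIs, so the totals are a description. Just inside the limit lay Rps10 with 120 UMIs, Rpl6-ps6 with 133 and Rpl32-ps1 with 150. Just outside lay Rps4y2 with 91, Rps21-ps1 with 88, Rpl3l with 86 and Rpl9 with 85.

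Each cytoplasmic ribosome joins a small subunit, built with the Rps proteins, and a large subunit, built with the Rpl proteins and the acidic stalk proteins Rplp0, Rplp1 and Rplp2 that recruit elongation factors. Their mRNAs are among the most abundant of any cell, and many begin with a C followed by a run of pyrimidines, the terminal oligopyrimidine tract through which their translation is tied to growth signalling. Because these mRNAs are abundant and short, they have been copied back into the genome many times, and most copies are processed pseudogenes close in sequence to the parent. In sensory ganglia, large neurons with long axons carry a heavy load of protein synthesis, while satellite glia wrap their cell bodies.

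The study profiled single cells of the lumbar dorsal root ganglia (L4 to L6, the side labelled ipsilateral) of male Sprague Dawley rats, labelled wild type and naive, on the BD Rhapsody platform. There were 2 libraries labelled Sham and 2 labelled CPIP, the pain model's name in the labels, and each library pooled 3 rats. The libraries are the replicates, so a p-value measures the spread between pools of animals. The sources used here give no age, procedure or timing for either group. The 4 matrices held 11829 to 12828 cell barcodes and 60885664 to 64550637 UMIs, any 2 of them shared 1 to 5 barcodes, and 10668 to 11566 cells per library were retained. Cells were clustered without the member rows and named by marker genes as neuron-like, satellite-glia-like and so on, which are shortened here to neurons and satellite glia. Testing covered 7 classes: neurons (2282 to 2929 cells per library), satellite glia (2899 to 3442), endothelial cells, nonmyelinating and myelinating Schwann cells, macrophages and smooth muscle cells. In a class, fewer cells and less RNA per cell cannot be told apart in sums of UMIs, so levels are UMIs per 1000000 UMIs of the class in that library (CPM). UMIs carry no length term, and no level of a gene is compared here with another gene's per length.

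The annotated starts of the members that the results turn on are printed because the mRNA start is the feature that ribosomal protein genes are known to share. Each is 30 bases, 5′ to 3′ on the gene's strand, with 15 bases before and 15 from the annotated first base, taken from RefSeq on build GRCr8. Capitals mark the unbroken run of C and T that begins at the annotated first base.
Rpl28: ccccgcccctagtgtCTTTCTTTCCgtctc
Rpl17: tagccttcgcgcttcCTCTTCCTgttagcg
Rpl22: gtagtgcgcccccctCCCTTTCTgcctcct
Rpl30l2: aaagcagttgctacaCCTTTCTCgctcccc
Rpl10a: gaaaccttctgccttCTTTTCCggttcccg
Rplp0: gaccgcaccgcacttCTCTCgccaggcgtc
Rplp2: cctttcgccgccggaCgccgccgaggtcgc
These windows lie at chr1:78083518-78083547 on the minus strand for Rpl28, chr18:70856261-70856290 on the plus strand for Rpl17, chr5:168117946-168117975 on the plus strand for Rpl22 and chr10:37332846-37332875 on the minus strand for Rpl30l2. The remaining 3 are chr20:6390518-6390547 (plus) for Rpl10a, chr12:46718376-46718405 (minus) for Rplp0 and chr1:205975906-205975935 (plus) for Rplp2. A tract was counted where the annotated first base was a C and each of the next 4 bases was C or T, read on the gene's strand only. It was present at 20 of 53 parent starts (37.7%), against 881 of all 33469 starts in the table (2.63%). Of the 5 l-suffix paralogs with a start, only Rpl30l2 had it, and none of the 11 other proteins did. Rplp2 lacked it at the annotated base, which says only that these letters are not at that position. By symbol, 104 of the 108 members matched a RefSeq gene. Of the 19 -ps rows, 16 were annotated as pseudogenes, 2 (Rpl9-ps30 and Rps7-ps23) as transcribed pseudogenes and 1 (Rpl6-ps6) as protein coding.

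Copies carried much of the signal of some ribosomal proteins. Over all barcodes the 75 matching parent rows summed to 5886679 UMIs, the 60 -ps rows to 687433 and the 21 l-suffix rows to 110843. The most abundant single member by summed UMIs was a copy. Rpl9-ps30, named after the large-subunit protein Rpl9, held 440316 UMIs, while the row called Rpl9 held 85. Rps20-ps10 held 79269 and the rows named Rpl38-ps9 held 28516 together, and the rows Rps20 and Rpl38 were at 0 in all 4 libraries. Rpl8-ps7 (41166 UMIs), Rpl37a-ps1 (22295) and Rpl7l1 (7246) stood without a parent row. Of 43 families with a copy row, 9 had most of their UMIs in copies and 18 had under 1% there. The 9 include Rpl22, Rpl7, Rps10 and Rps18, whose largest copy row was an l-suffix row. Rps18l1 held only 80 UMIs. So a search by plain symbol would give Rpl9, Rps20 or Rpl38 as nearly undetected, although a row of the same family was abundant. No sequences of parent and copy were compared here, and how the authors assigned reads is not given in the labels or files used. The split between parent and copy is therefore uncertain throughout.

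The 5 most abundant members were Rpl9-ps30, the small-subunit genes Rps29, Rps28 and Rps16, and Rpl5, which binds the 5S ribosomal RNA. Over all retained cells, Rpl9-ps30 stood at 1682 (Sham 1), 1798 (Sham 2), 1947 (CPIP 1) and 1738 CPM (CPIP 2). Rps29 stood at 1523, 1401, 1643 and 1542 CPM in the same order. Rpl5 was the flattest of the 5, at 1070, 1031, 1058 and 1026 CPM. The Sham and CPIP libraries overlapped for Rpl9-ps30 and Rpl5, while both CPIP libraries lay above both Sham libraries for Rps29.

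The 7 tested classes differed in how much of their RNA came from ribosomal rows. Endothelial cells had the largest share, 5.98% ± 0.173 of UMIs (SD over 4 libraries), followed by macrophages with 4.69% ± 0.341 and smooth muscle with 3.85% ± 0.201. Nonmyelinating Schwann cells (3.11% ± 0.222), myelinating Schwann cells (2.80% ± 0.104) and neurons (2.77% ± 0.189) came next, and neighbours among these 3 classes overlapped. Satellite glia had the lowest share, 2.10% ± 0.0990, and no satellite glia library reached a neuron library. Fibroblasts (3.58%) and pericytes (3.68%), which were not tested, lay between nonmyelinating Schwann cells and smooth muscle. Clusters set aside for their low UMI counts stood at 1.22%, under every named class. These are descriptions of the order of classes, and the depth per cell also differs between classes. Median UMIs per cell in Sham 1 were 5937 in neurons, 5118 in satellite glia and 3101 in endothelial cells. They were lower in macrophages (2208), myelinating Schwann cells (1666), smooth muscle (1656) and nonmyelinating Schwann cells (1126), so the order of depth is not that of the shares. Whether depth has a part in the order was not tested.

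**Figure D1:**
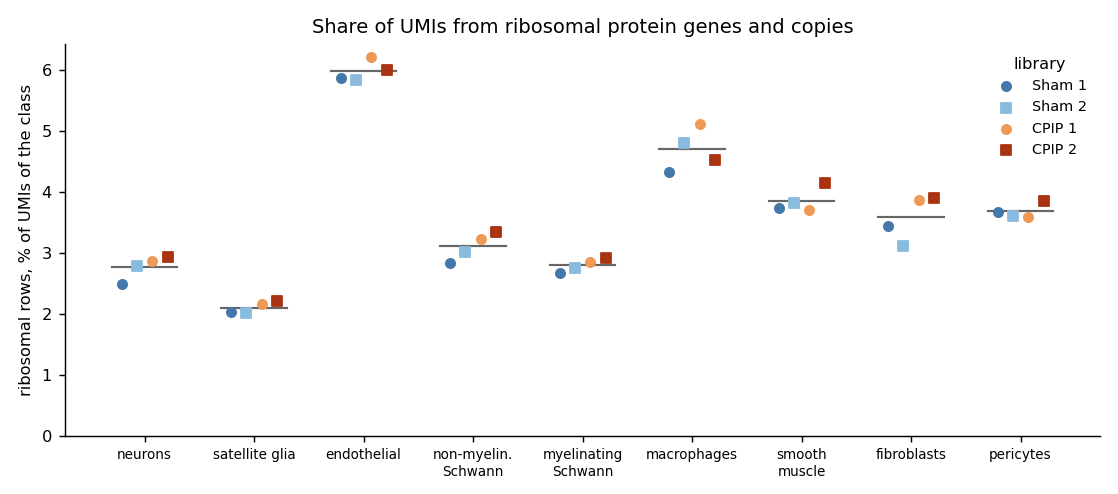
Share of each class's UMIs from the 97 ribosomal rows, in percent (y axis), by cell class (x axis), with 1 point per library and Sham and CPIP in different colours. Endothelial cells lie between 5.83% and 6.21% and satellite glia between 2.01% and 2.21%.

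Row by row, endothelial cells exceeded satellite glia almost throughout, while the rest of the order varied. Of the 97 ribosomal rows, 78 had their highest 4-library mean in endothelial cells and 12 in macrophages, and 66 had their lowest in satellite glia and 18 in neurons. The ratio of the endothelial to the satellite glia level was at least 1 in 96 of 97 rows, with a median of 2.85. Rpl22, a large-subunit protein that also binds RNA outside the ribosome, was the single row with a lower level in endothelial cells (24.4 CPM) than in satellite glia (28.4 CPM). It was also the single row highest in neurons, at 62.9 and 63.8 CPM in the Sham and 58.7 and 57.2 CPM in the CPIP libraries. Rpl22 here is the row with the most UMIs of those sharing the symbol, as for Rpl30, Rpl35a and Rpl38-ps9. The next smallest endothelial to satellite glia ratios belonged to l-suffix paralogs, Rpl7l1 with 1.25 and Rps27l with 1.46.

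The paralogs' share of a pair differed between classes. Rpl22l1, the paralog of Rpl22, made up 64.6% of Rpl22 plus Rpl22l1 UMIs in neurons, 71.0% in satellite glia, 84.3% in endothelial cells and 86.7% in macrophages. In endothelial cells both terms differed from neurons, since Rpl22l1 stood at 130 CPM against 111 in neurons while Rpl22 stood at 24.4 against 60.6. Rps27l, the paralog of the small-subunit gene Rps27, ran the other way. Its share was 26.5% ± 0.329 in neurons (SD, n = 4), 22.6% ± 0.799 in satellite glia and 10.7% ± 0.297 in endothelial cells. Rps27l itself hardly differed between neurons (100.5 CPM) and endothelial cells (116 CPM), whereas Rps27 stood at 278 and 969 CPM. The neuron value in Sham 1, 26.7%, had a 95% Wilson interval of 25.8 to 27.7%, which covers counting error only. In Rps27l the lowest and highest of the 7 class means differed 2.79-fold, and in Rpl30l2, whose parent Rpl30 is another large-subunit gene, only 1.15-fold (40.1% to 46.0%). In Rpl22l1 the class means differed 1.34-fold. Wider ranges than that of Rps27l were seen in the rarer rows Rpl27-l1 (3.93-fold) and Rpl4-ps1 (4.14-fold).

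**Figure D2:**
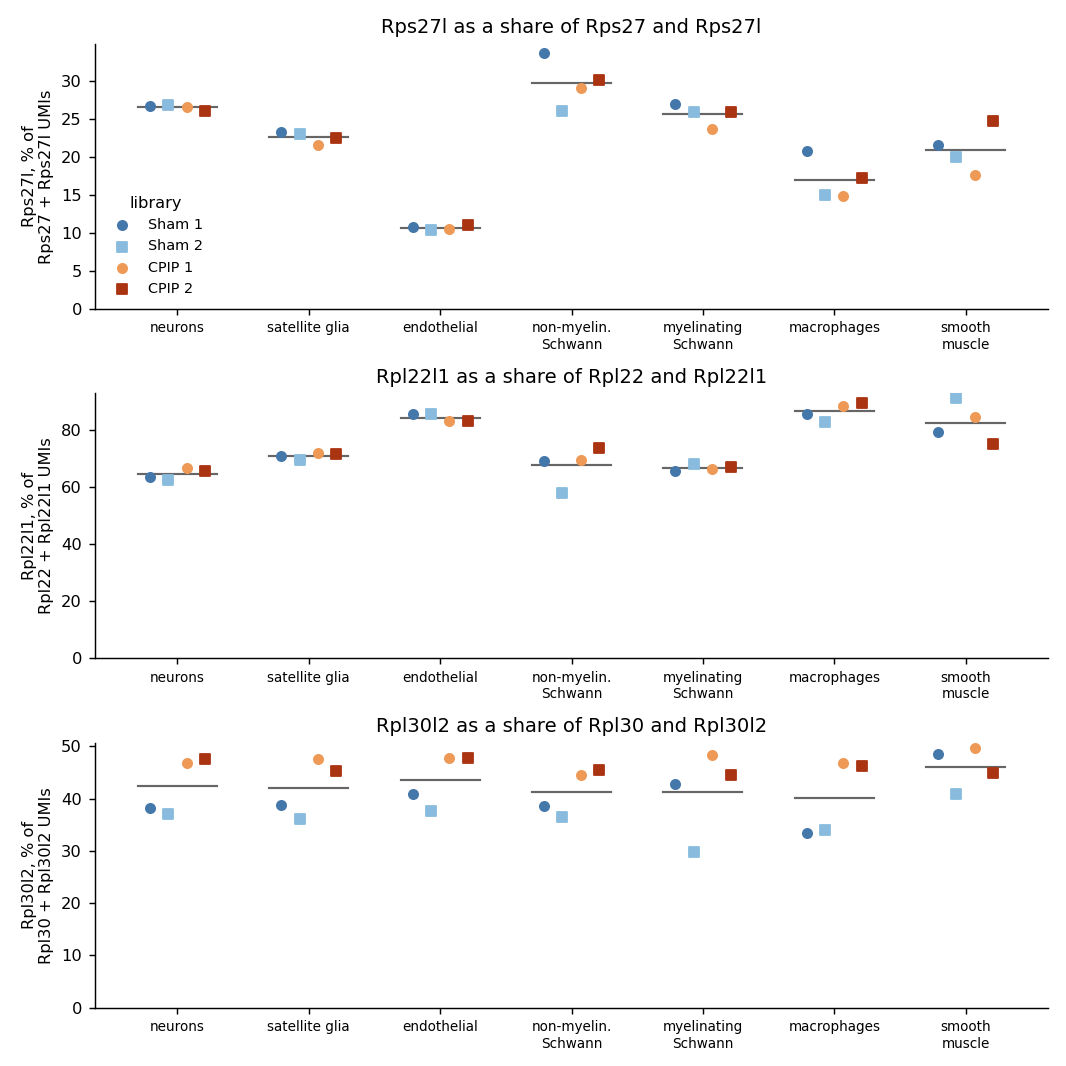
Share of the paralog in the UMIs of parent plus paralog, in percent (y axis), for Rps27l, Rpl22l1 and Rpl30l2 by cell class (x axis), 1 point per library. Rps27l is lowest in endothelial cells (mean 10.7%), and in neurons both CPIP libraries lie above both Sham libraries for Rpl30l2.

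CPIP was then compared with Sham within each class. Few genes of any kind passed edgeR's quasi-likelihood test at an adjusted p under 0.05 over all tested rows. One member was called in neurons, where 0.00733% of 13641 rows were called, 1 in endothelial cells (0.0099% of 10098), 1 in nonmyelinating Schwann cells (0.0292% of 6861) and 1 in myelinating Schwann cells (0.0143% of 6970). In satellite glia, macrophages and smooth muscle 0 members were called, as were 0% of all rows, while 7, 5 and 5 members had an unadjusted p under 0.05. Over all rows of these 3 classes, 410, 287 and 230 had an unadjusted p under 0.05. DESeq2 called 6 rows in satellite glia, 2 of them members, and 0 in macrophages and smooth muscle. The member called in the first 3 classes was Rpl10a-ps9, and in myelinating Schwann cells it was Rpl17. The counts hang on single libraries: without CPIP 1, edgeR called 18 members in neurons and 14 in satellite glia (6.45% and 3.64% of all rows), and without CPIP 2 it called 5 and 2 (0.651% and 0.148% of all rows).

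The ribosomal rows as a whole stood slightly higher in CPIP. In neurons their share of UMIs was 2.50% and 2.78% in Sham and 2.86% and 2.93% in CPIP, and in satellite glia 2.03% and 2.01% against 2.16% and 2.21%. Both CPIP libraries lay above both Sham libraries in 5 of the 7 classes, and they overlapped in macrophages and smooth muscle. A two-sided exact permutation test of 2 against 2 libraries gave p = 0.333 in neurons, 0.466 after Benjamini-Hochberg adjustment over 7 classes, and no such test can go below 0.33. The median log2 fold change of parent rows was 0.10 in neurons (54 of 67 above 0) and 0.09 in satellite glia (54 of 66), against 0.01 over all tested rows in both classes. In neurons the separated rows were 15 of 97 with CPIP above Sham and 6 with CPIP below, where 15% and 17.9% of all tested rows separated in those directions. In satellite glia they were 25 and 6 of 94 tested, against 12.4% and 20% of all rows. The share above Sham in neurons was thus that of the background, while the share below was 6.19% against 17.9%. In nonmyelinating Schwann cells the separated rows were 29 above and 4 below of 79, against 17.04% and 17.65% of all rows. In myelinating Schwann cells they were 15 and 12 of 80, against 18.98% and 15.09%. Parents with a tract at their start had a median log2 fold change of 0.10 in neurons (22 rows) and those without it 0.09 (34 rows). Rows that share a symbol were each counted here. Median UMIs over all retained cells were lower in CPIP (3686 and 3853) than in Sham (4038 and 4282), but in neurons they were 5937 and 5994 in Sham against 5946 and 5816 in CPIP. The part of depth in these small differences was not tested.

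Rpl10a-ps9, a copy named after the large-subunit gene Rpl10a and annotated as a pseudogene, was near 0 in Sham and plainly present in CPIP. Its identifier in the files is ENSRNOG00000047067. Over all retained cells the Sham libraries held 41 and 38 UMIs of it and the CPIP libraries 1156 and 1984, or 0.735 and 0.645 against 20.2 and 34.0 CPM. Both CPIP libraries lay far above both Sham libraries, and CPIP 2 above CPIP 1. The same held in every tested class. In neurons the levels were 0.755 and 0.795 CPM in Sham and 22.2 and 35.4 in CPIP, in satellite glia 0.496 and 0.487 against 15.7 and 26.6, and in endothelial cells 1.94 and 0.650 against 39.2 and 61.5. No UMI was seen in Sham nonmyelinating Schwann cells, macrophages or smooth muscle.

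With the UMIs of both libraries of a group summed, the level in CPIP was 36.9-fold that in Sham in neurons (exact interval 26.9 to 51.8, counting error only), 43.9-fold in satellite glia and 38.7-fold in endothelial cells. Against a floor of 3 UMIs over both Sham libraries it was at least 14.5-fold higher in nonmyelinating Schwann cells, at least 10.4-fold in macrophages and at least 8.45-fold in smooth muscle. In myelinating Schwann cells, with 1 Sham UMI, the ratio was 39.3 with an interval of 6.81 to 1576. In edgeR the log2 fold change was 5.21 ± 0.30 (SE) in neurons (adjusted p = 0.0478), 5.25 ± 0.42 in endothelial cells (adjusted p = 0.0158) and 5.43 ± 0.36 in satellite glia, which did not pass (adjusted p = 0.146). Each SE given with an edgeR fold change was worked back from the test statistic. The edgeR call in nonmyelinating Schwann cells had an adjusted p of 0.000876. Leaving out either Sham library ended the call in neurons (edgeR adjusted p = 0.496 without Sham 1 and 0.262 without Sham 2) and in nonmyelinating Schwann cells (0.117 and 0.0634). In endothelial cells it was lost without Sham 1 (0.283) and without CPIP 1 (0.543, edgeR). Elsewhere leaving out a library gave a call: in satellite glia without either CPIP library (edgeR adjusted p = 1.48e-05 without CPIP 1 and 0.000137 without CPIP 2), and in myelinating Schwann cells and macrophages without Sham 1, Sham 2 or CPIP 1.

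Of 14364 rows with at least 100 UMIs, none had a larger ratio of the lower CPIP library to the higher Sham library than Rpl10a-ps9, at 27.5, and 32 rows reached a ratio of 2. No row reached 2 in the opposite direction. Since the copy was chosen for this pattern, its rank is a description.

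The parent Rpl10a showed no such pattern. Over all retained cells it stood at 279 and 280 CPM in Sham and at 270 and 208 CPM in CPIP, and CPIP 2 was its lowest library in all 7 classes. In neurons it was 287 and 313 against 291 and 226 CPM, and the groups overlapped, as they did in myelinating Schwann cells and macrophages. In the other 4 classes both CPIP libraries lay below both Sham libraries, though narrowly in smooth muscle and in satellite glia (220 and 210 against 209.6 and 163 CPM in the latter). In endothelial cells Rpl10a was at 507 and 512 CPM in Sham and 476 and 383 in CPIP. Its log2 fold change in satellite glia was -0.19, which did not pass. The copy's share in the UMIs of parent plus copy was 0.263% and 0.230% in the Sham libraries, 6.95% in CPIP 1 and 14.1% in CPIP 2. Over the 7 classes it ran from 4.79% to 8.70% in CPIP 1 and from 13.6% to 19.2% in CPIP 2, on few UMIs in the small classes. Summed, parent and copy reached 280, 281, 291 and 242 CPM over all retained cells, and the groups overlapped in each tested class. When copies were added to their parents before the test, edgeR called 0 members in neurons and in endothelial cells. Sequence that tells copy from parent was not analysed here.

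**Figure D3:**
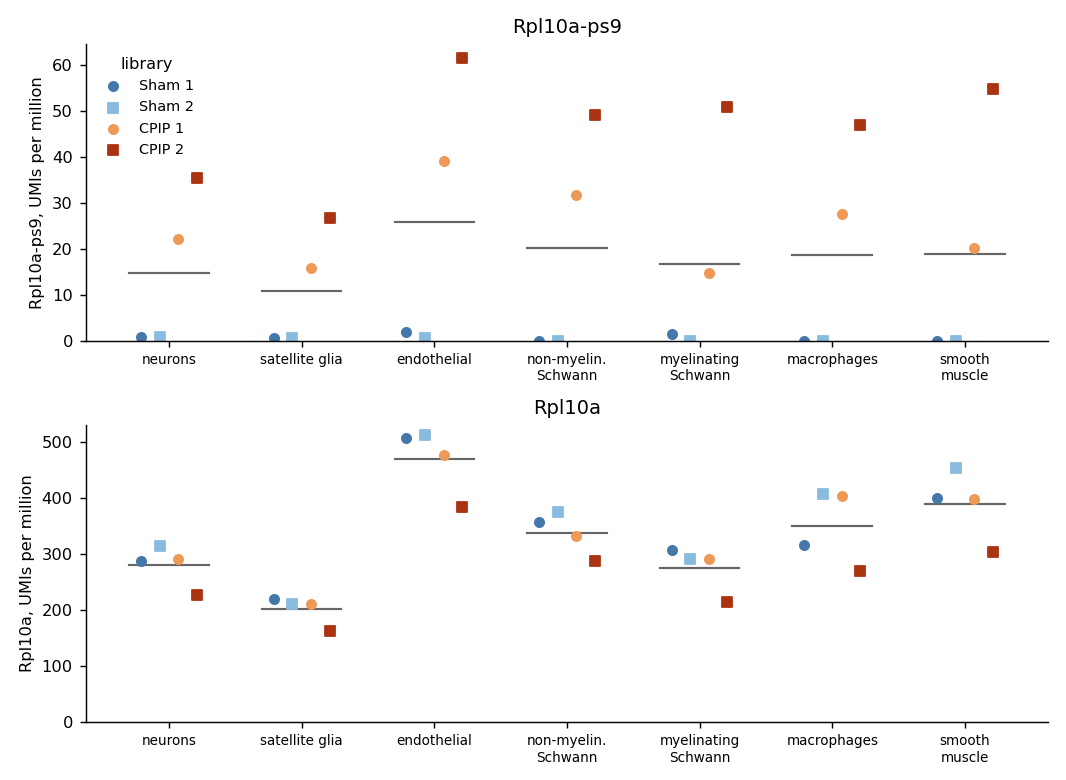
Level of Rpl10a-ps9 and of its parent Rpl10a in CPM (y axes, linear, from 0) by cell class (x axis), 1 point per library. The copy lies between 14.6 and 61.5 CPM in the CPIP libraries and at most 1.94 in the Sham libraries, and the parent is lowest in CPIP 2 in each class.

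Several members stood high in CPIP 2 alone. Rpl28, a large-subunit gene, was at 53.2 and 44.9 CPM in Sham neurons, 43.9 in CPIP 1 and 193 in CPIP 2, and at 55.3, 48.7, 42.5 and 183 CPM in satellite glia. CPIP 1 lay with the Sham libraries, so the groups overlapped, and the log2 fold change in neurons of 1.28 ± 0.62 (SE) had an edgeR adjusted p of 0.970. The stalk gene Rplp2 showed 196 and 193 CPM in Sham neurons, 192 in CPIP 1 and 603 in CPIP 2. The stalk base Rplp0 showed 176, 167, 175 and 410 CPM in the same order, and Rpl8-ps7, the abundant copy without a parent row, 127, 130, 123 and 357. The third stalk protein did not share this: Rplp1 had a log2 fold change of -0.08 in neurons. Over all retained cells, CPIP 2 exceeded the mean of the other 3 libraries 3.88-fold for Rpl28, 2.84-fold for Rplp2, 2.64-fold for Rpl8-ps7, 2.34-fold for Rplp0 and 1.95-fold for Rpl15. Rps14, a small-subunit gene, had a milder form of this shape, at 54.9 and 49.0 CPM in Sham neurons, 40.0 in CPIP 1 and 75.4 in CPIP 2.

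This was not limited to ribosomal rows. Among 10179 rows with at least 1000 UMIs, 263 (2.58%) were at least 2-fold above the mean of the other libraries in CPIP 2, against 5 in Sham 1, 5 in Sham 2 and 17 in CPIP 1. Of the 92 members at that depth, 5 (5.43%) did so in CPIP 2 and 0 in each other library. The 5 were Rpl10a-ps9, Rpl28, Rpl8-ps7, Rplp0 and Rplp2. Of these Rpl10a-ps9 was not high in CPIP 2 alone, since CPIP 1 held 1156 UMIs of it against 41 and 38 in Sham. It is counted in neurons below as well. In neurons 6 of 86 members did so in CPIP 2, where Rpl15 joined, against 1.95% of 7288 rows. In satellite glia it was 4 of 83, against 1.47% of 6442 rows. Without CPIP 2, the log2 fold change in satellite glia was -0.26 for Rpl28, -0.13 for Rplp2 and -0.07 for Rplp0 in place of a positive value. Rpl29 differed in shape, with its lowest neuron level in CPIP 1: 37.4 and 25.5 CPM in Sham neurons, 15.6 in CPIP 1 and 40.2 in CPIP 2.

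**Figure D4:**
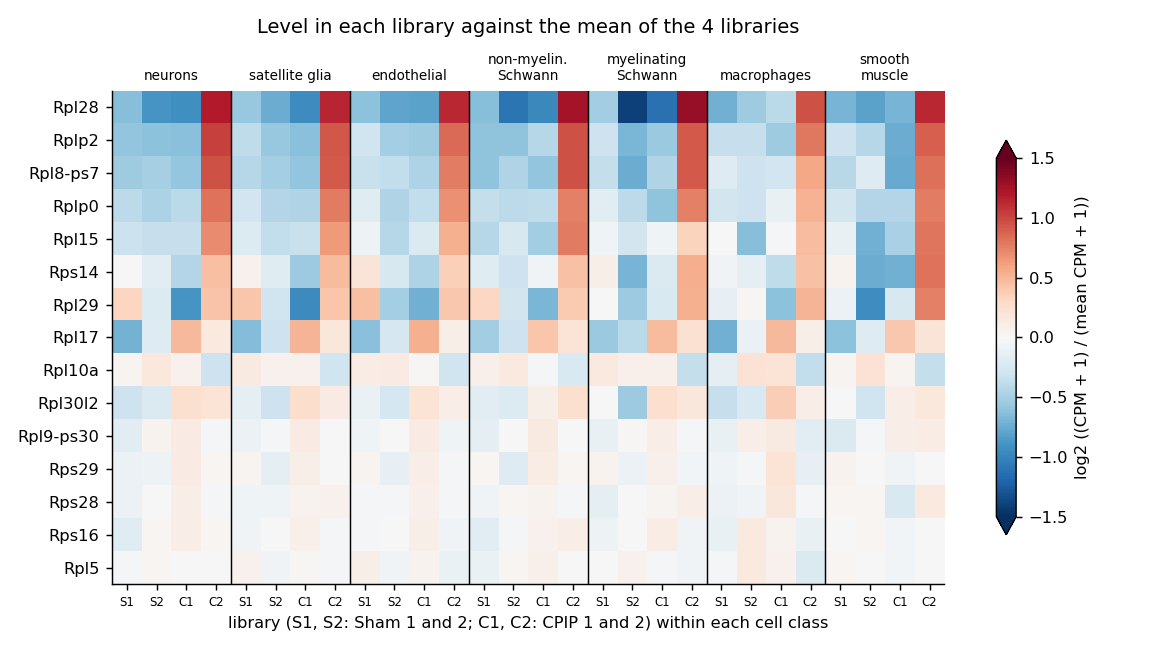
Level of 15 members in each library relative to their mean over the 4 libraries, as log2 of (CPM + 1) over (mean + 1), with members in rows and the 7 tested classes with 4 libraries each in columns. Rpl28, Rplp0, Rplp2 and Rpl8-ps7 are high in CPIP 2 in each class, whereas Rpl17 and Rpl30l2 are higher in both CPIP libraries than in both Sham libraries.

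Rpl17, a large-subunit protein near the exit of the nascent chain, was a parent whose Sham and CPIP libraries separated in every tested class. Its identifier in the files is ENSRNOG00000018680. In neurons it stood at 315 and 450 CPM in Sham and 722 and 570 in CPIP, in satellite glia at 210 and 267 against 472 and 373, and in endothelial cells at 771 and 997 against 1728 and 1266. Sham 1 was lowest, then Sham 2, CPIP 2 and CPIP 1, in this order in all 7 classes, so the groups did not overlap in any. Of all tested rows, 15% in neurons and 12.4% in satellite glia had both CPIP libraries above both Sham libraries. How many rows did so in all 7 classes was not counted. The gap between the Sham libraries was itself wide, and in neurons the log2 fold change of 0.77 ± 0.20 (SE) had an edgeR adjusted p of 0.970. In satellite glia it was 0.85 ± 0.17 (edgeR adjusted p = 0.988). In myelinating Schwann cells, at 320 and 357 against 659 and 557 CPM, it was 0.83 ± 0.13 and passed (edgeR adjusted p = 0.0221). That call was lost with the doublet candidates kept (adjusted p = 0.261 in edgeR) and with a stricter cell filter (0.994). The 7 classes come from the same 4 libraries and are no replicates of each other.

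Among paralogs, Rpl30l2 had a larger share in CPIP. It made up 38.7% and 36.6% of Rpl30 plus Rpl30l2 UMIs in Sham and 47.3% and 46.1% in CPIP over all retained cells. The groups did not overlap in 6 of the 7 classes and overlapped in smooth muscle, and the exact permutation p was 0.333, the smallest possible. How often pairs of other genes separated in as many classes was not counted. In neurons Rpl30l2 itself was at 146 and 156 CPM in Sham and 213 and 208 in CPIP, while Rpl30 was at 236, 265, 242 and 230. Rpl10l, a paralog of Rpl10 otherwise known from testis, was rare, and rarer still in CPIP neurons. It made up 1.43% and 1.56% of the pair in Sham neurons and 0.677% and 0.684% in CPIP neurons, from 165, 186, 89 and 72 UMIs. In satellite glia the shares were 1.10% and 0.989% against 0.531% and 0.459%, but in endothelial cells they overlapped at 0.977% and 1.26% against 1.42% and 1.19%. Rpl36al, the paralog of Rpl36a, was rarer still, with a class mean of at most 0.735% of its pair. Rps4x-ps9, a copy of the small-subunit gene Rps4x, held class means of 11.0% to 12.6% of its pair, and its groups overlapped in each tested class.

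The lowest fold changes of abundant members were small. In neurons, after Rpl10a, they were Rpl22 at -0.12, Rpl11 at -0.11, Rps6kc1 at -0.09 and Rplp1 at -0.08 on the log2 scale. In satellite glia Rpl11, a partner of Rpl5 in the 5S particle, was at -0.14, Rpl30 at -0.09, Rpl35a at -0.05 and Rpl38-ps9 at -0.03. None of these passed the test.

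Neurons and satellite glia of the same 4 libraries were compared in 1 fit with the library as a block. These 2 classes differ in most genes: 89.2% of 13582 rows were called. Of 106 members tested, 66 were called, 38 higher in neurons and 28 higher in satellite glia, which is a smaller share than the background. The direction rests on the scaling. With library totals alone in place of the TMM factors, 86 members were called, 71 higher in neurons and 15 in satellite glia, and the median of all rows moved from 0.08 to 0.34 on the log2 scale. Parents were near the median under both, at 0.01 and 0.28. Changes are therefore read against 0.08, the median of all rows. By kind, 41 of 66 parents were called (22 higher in neurons), 12 of 18 -ps copies (9 higher in neurons), 5 of 11 l-suffix rows (3) and 8 of 11 other proteins (4).

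Among members with a mean of at least 32 TMM-scaled CPM in the higher class, the largest differences belonged to the kinases. Rps6kl1 stood at 46.3 CPM in neurons and 1.66 in satellite glia (4-library means), a log2 difference of 4.53 ± 0.10 (SE). Rps6ka2, a kinase downstream of ERK, followed with 83.4 against 23.1 CPM (1.59), and Rps6kc1 with 53.8 against 15.6 (1.53). Rps6ka5 and Rps6ka3 were higher in satellite glia, with log2 differences of -0.59 and -0.56. Below that level Rps6ka6 was called higher in neurons (1.71 against 0.266 CPM, 2.43) and Rps6ka4 in satellite glia (6.47 against 12.9 CPM, -1.26).

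The ribosomal rows were ranked at the same level, a mean of at least 32 TMM-scaled CPM in the higher class. Of those higher in neurons, Rpl23a (335 against 151 CPM, 0.89), which lies at the exit tunnel, and Rpl22 (60.6 against 28.4, 0.83) led. The small-subunit genes Rps28 (1598 against 761 CPM, 0.81), Rps21 (923 against 460, 0.74), Rps15a (332 against 175, 0.66) and Rps27a (1019 against 537, 0.66) followed. Rps27a is made as a fusion with ubiquitin, and its copy Rps27a-ps1 was also higher in neurons (49.3 against 24.7 CPM, 0.73). Below that level Rpl10l (5.11 against 2.02 CPM, 1.08) and Rps28-ps1 (31.9 against 14.5, 0.88), among others, were called higher in neurons. Higher in satellite glia were Rpl35a (44.4 CPM in neurons against 66.0, -0.84), the stalk gene Rplp0 (232 against 319, -0.73) and Rps16 (970 against 1340, -0.73). Rpl37a-ps1 (66.0 against 86.2 CPM, -0.65), Rpl7l1 (24.2 against 30.8, -0.61), Rps2 (-0.48), Rplp1 (-0.42) and Rpl39 (338 against 369 CPM, -0.40) came next. With Rps6ka5 and Rps6ka3 these make up the 10 largest differences in that direction at that level. Below it Rps19 (7.99 against 12.7 CPM, -0.94) and Rpl35a-ps6 (15.2 against 19.7, -0.64), among others, were called higher in satellite glia. Rpl39 turned to 0.09 with the stricter cell filter, which kept only 143 to 260 satellite glia per library. Of the stalk genes, Rplp0 and Rplp1 were thus lower in neurons, and Rplp2 (296 against 225 CPM, 0.09) was not called. For parents with a tract at the start the median difference was -0.17 (22 rows), and for those without it 0.06 (33 rows). Starts were matched by symbol, so the 22 rows count the low second rows of Rpl22 (-0.79) and Rpl35a (-0.82) beside the main ones. Only 20 distinct parent starts held a tract, and these medians are not read as a difference between the kinds of start.

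**Figure D5:**
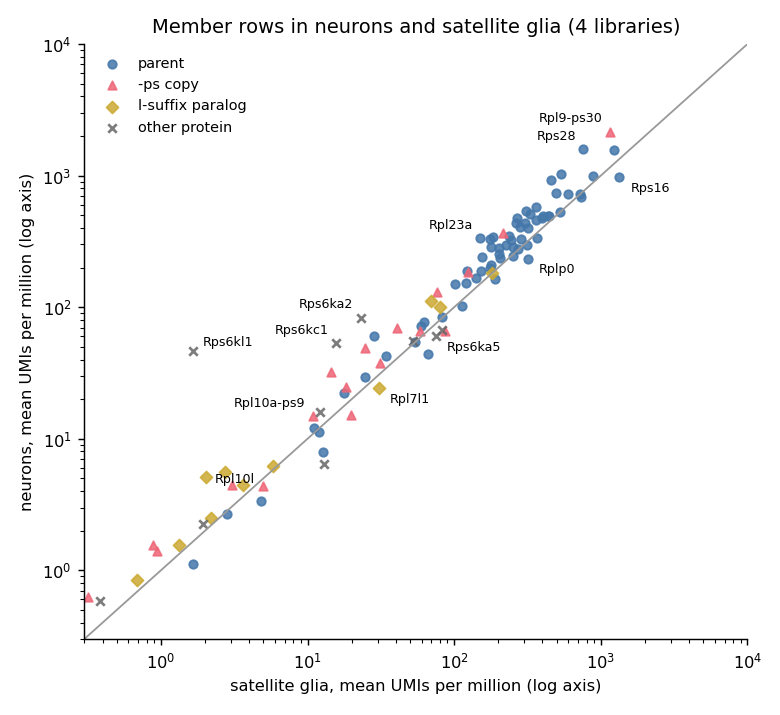
Mean level over 4 libraries in satellite glia (x axis) and in neurons (y axis), both in CPM on log axes, 1 point per member, coloured by kind. Rps6kl1 (46.3 against 1.66 CPM) lies farthest above the diagonal, and most ribosomal rows follow it closely.

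Other genes of the translation machinery were taken from lists chosen with earlier results of these data known. In CPIP against Sham edgeR called 0 genes of any list in any class: the 42 ribosome biogenesis genes, the 17 elongation factor and tract genes, the 26 initiation genes, the 37 mitochondrial ribosome genes and ribosomal proteins with other symbols. Of 705 such tests over the classes, 20 had an unadjusted p under 0.05, and DESeq2 called 0. Between neurons and satellite glia, 31 of 37 mitochondrial ribosomal proteins (Mrpl and Mrps, the ribosome inside mitochondria) were higher in neurons and 2 lower, with a median log2 difference of 0.87 against 0.08 for all rows. The biogenesis genes split, 19 higher and 16 lower of 42, with a median of -0.01. Elongation and tract genes were 11 higher and 6 lower of 17 (median 0.21), and initiation genes 9 higher and 14 lower of 26 (median -0.15).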

How the data were processed

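Each library was deposited by the authors as a matrix of raw counts, in whole UMIs, of gene rows by cell barcodes. The authors' aligner, genome build, strand setting and treatment of reads that match several genes were not given in the sources used here. Cells with at least 200 genes and at most 25% mitochondrial UMIs were kept. Scrublet marked under 0.5% of cells in 3 libraries, so the 5% of cells with the highest doublet scores were removed from each library. Cells were clustered with scanpy 1.11.5 (2000 variable genes without member rows, 30 principal components, 15 neighbours, Leiden resolution 1) and clusters were named from marker lists, by a rule set after the clusters were seen. UMIs were summed per library and class and tested with edgeR 4.0.16 (TMM, filterByExpr, quasi-likelihood, Benjamini-Hochberg over all rows of the class, R 4.3.3), with DESeq2 1.42.0 as an alternative. The SE of an edgeR log2 fold change is its absolute value divided by the square root of the quasi-likelihood F statistic. Fitting was tested on simulated data. The libraries held 60885664 to 64550637 UMIs each. RefSeq symbols and starts on GRCr8 were matched by symbol, and no coordinates of the files were used.

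The members and the gene lists were chosen with earlier results of these data known. Named are members called in CPIP against Sham and the 5 largest rises and falls in neurons and in satellite glia. The 10 largest differences each way between these classes are named as well. These rises, falls and differences needed a mean of at least 32 TMM-scaled CPM. The others named are the 5 most abundant, the 10 with the widest spread between libraries, and set parent and paralog pairs. Rpl30l2, Rpl8-ps7 among copies without a parent, and the families dominated by copies were singled out after their values were seen. Alternatives were other scalings, DESeq2, no count filter, each library left out, stricter cells, doublets kept, members allowed in clustering, copies added to parents and a replicate block, and, chosen after seeing the data, library totals only and a crossed pairing. Single genes of the ribosomal proteins with other symbols are not reported here.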

Additional observations from a re-analysis of the deposited data

Results flagged for a closer look

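Several members differed in opposite directions in 2 classes, with both CPIP libraries on one side of both Sham libraries in one class and on the other side in the other. None of these differences was tested, the classes share their libraries, and the values below are the distance between the 2 log2 fold changes. Separated groups were common among all tested rows. From 12.4% (satellite glia) to 19.0% (myelinating Schwann cells) lay higher in CPIP. From 15.1% (myelinating Schwann cells) to 20% (satellite glia) lay lower. How many of all rows separated in opposite directions in 2 classes was not counted, so the list is a description. Rpl10l was lower in CPIP in neurons and in satellite glia and higher in endothelial cells, a distance of 1.39 and 1.25. Rpl22 was lower in neurons and in nonmyelinating Schwann cells and higher in endothelial cells (0.479 and 0.798). Rpl7l1 was higher in macrophages and lower in neurons (0.632), satellite glia (0.564), endothelial cells (0.715), myelinating Schwann cells (1.07) and smooth muscle (1.19). The wide distances rest on few UMIs. Macrophages held 342164 to 893986 UMIs per library in total and smooth muscle 198393 to 371133. Rpl10l averaged only 7.25 CPM in endothelial cells, and its share of the pair overlapped between the groups there.

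The other distances were smaller for the most part. Rpl23a was lower in myelinating and higher in nonmyelinating Schwann cells (0.394). Rps15a was lower in myelinating Schwann cells and higher in satellite glia (0.274) and smooth muscle (0.407). Rps16 was lower in smooth muscle and higher in neurons (0.17) and nonmyelinating Schwann cells (0.208), and Rps27a was lower in smooth muscle and higher in myelinating Schwann cells (0.343). Rps27a-ps1 was lower in nonmyelinating Schwann cells and higher in macrophages (0.783). The kinase row Rps6kl1 was lower in satellite glia and higher in endothelial cells (0.731).

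Rpl10a-ps9 also appeared in the CPIP cells that no comparison used. In the clusters set aside for low UMI counts it stood at 14.2 CPM in CPIP 1 and 19.1 in CPIP 2, and in clusters without a name at 18.2 and 39.4 CPM. The Sham libraries together held 1 UMI of it in the low-UMI clusters and 8 in the unnamed ones.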

How the results depend on the processing

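Calls in CPIP against Sham depended on the setting, and the cause was not tested except where fewer rows or samples entered by construction. Classes follow in the order neurons, satellite glia, endothelial cells, nonmyelinating Schwann cells, myelinating Schwann cells, macrophages and smooth muscle, in which edgeR called 1, 0, 1, 2, 1, 0 and 0 rows and 1, 0, 1, 1, 1, 0 and 0 members. DESeq2 called 13, 6, 2, 0, 0, 0 and 0 rows and 2, 2, 1, 0, 0, 0 and 0 members. Without the filter on low counts the counts were 1, 1, 0, 38, 26, 36 and 8 rows and 1, 1, 0, 6, 5, 3 and 2 members. That fit tested more rows: in macrophages 15118 with 107 members, against 6095 with 85 in the main fit. It called 0.238% of all rows in macrophages and 0.175% of 14831 in myelinating Schwann cells. The counts of members in these settings are descriptions and are not read as a result about the members. With library totals only they were 0, 0, 1, 4, 1, 0 and 0 rows and 0, 0, 1, 2, 1, 0 and 0 members. Copies added to their parents left 0, 0, 0, 1, 1, 0 and 0 rows and a member in myelinating Schwann cells alone, 1. Doublets kept gave 1, 0, 1, 1, 0, 2 and 0 rows and 1, 0, 1, 1, 0, 1 and 0 members. The stricter cell filter (at least 1000 UMIs, at most 10% mitochondrial) gave 2, 0, 0, 0, 0, 0 and 3 rows and 1 member, in neurons. It kept only 143 to 260 satellite glia and 13 to 21 smooth muscle cells per library. Leaving out 1 library gave 0 to 904, 0 to 476, 0 to 25, 0 to 76, 12 to 101, 21 to 79 and 2 to 39 rows, and 0 to 18, 0 to 14, 0 to 1, 0 to 6, 1 to 6, 1 to 5 and 0 to 6 members.

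Sham and CPIP libraries share replicate numbers but no stated origin, and the correlation of their deviations was -0.13 to -0.05 over the classes. The replicate block gave 1, 1, 1, 3, 15, 3 and 0 rows and 1, 1, 1, 1, 5, 1 and 0 members, and crossed pairing 2, 1, 4, 52, 28, 27 and 0 rows and 1, 1, 1, 6, 5, 2 and 0 members. Both tested the rows of the main fit, and crossed pairing called 0.443% of all rows in macrophages. These counts of members are descriptions too. With the replicate block the median parent fold change in satellite glia was 0.09, and Rpl10a-ps9 passed in satellite glia (5.42), myelinating Schwann cells (4.90) and macrophages (7.41).

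The log2 fold change of Rpl10a-ps9 stayed above 3 in every fit. It passed in satellite glia with DESeq2 (5.45) and without the filter (5.43), in myelinating Schwann cells (5.08) and macrophages (7.51) without the filter, and in macrophages with doublets kept (7.74). It no longer passed in neurons with library totals (5.21), in endothelial cells without the filter (5.23) or with stricter cells (8.52), or in nonmyelinating Schwann cells with DESeq2 (6.90). With 1 library left out it ranged over 4.85 to 5.51 in neurons, 5.01 to 5.76 in satellite glia, 4.69 to 6.20 in endothelial cells, 7.40 to 7.90 and 3.92 to 7.77 in the Schwann classes and 6.77 to 7.75 in macrophages.

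The median fold change of parents ran from 0.06 to 0.11 in satellite glia, 0.01 to 0.06 in endothelial cells, 0.00 to 0.07 in myelinating Schwann cells and -0.06 to 0.15 in macrophages with 1 library left out. With library totals it was 0.07 in satellite glia and 0.08 in myelinating Schwann cells, without the filter 0.07 in the latter, and with stricter cells 0.13, 0.11 and, in smooth muscle, 0.24. The CPIP minus Sham share of ribosomal UMIs ran from -0.0501 to 0.543 percentage points in macrophages (lowest without CPIP 1) and from -0.0687 to 0.368 in smooth muscle (lowest without CPIP 2).

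Values under the stricter filter rest on few cells, 143 to 260 satellite glia and 13 to 21 smooth muscle cells per library. Whether its shifts come from cell quality or from small numbers was not tested. Stricter cells raised the share of Rpl22l1 to 79.3% in satellite glia, 76.0% in nonmyelinating and 70.0% in myelinating Schwann cells (65.2% in the latter with doublets kept). Rps27l became 24.0%, 11.4% and 14.9% in satellite glia, endothelial cells and smooth muscle, and its difference in satellite glia 0.0057 points in place of -1.17. Rpl36al became 0.370%, 0.963% and 0% in satellite glia, nonmyelinating Schwann cells and smooth muscle, with a difference of -0.0923 points in satellite glia. Rpl10l became 1.41% in satellite glia and 0.962% in smooth muscle, with a difference of 0.164 points in macrophages. Single members turned with stricter cells for Rpl35a (0.0602), Rpl38-ps9 (0.00687) and Rps14 (-0.0622) in satellite glia, and for Rpl39 (0.0901) between neurons and satellite glia. With 1 library left out, the lowest and highest log2 fold changes were -0.143 and 1.98 for Rpl28 in neurons and -0.263 and 1.83 in satellite glia, -0.0038 and 1.64 and -0.135 and 1.43 for Rplp2, and -0.0437 and 1.48 and -0.0937 and 1.42 for Rpl8-ps7. In satellite glia they were -0.0699 and 1.15 for Rplp0, -0.0212 and 0.956 for Rpl15, -0.144 and 0.0418 for Rpl35a and -0.106 and 0.0411 for Rpl38-ps9. Rps14 ran from -0.36 to 0.542 in neurons and -0.471 to 0.558 in satellite glia, Rpl29 from -0.996 to 0.355 and -1.08 to 0.355, and Rpl6-ps6 from -0.255 to 0.835 in neurons. Between neurons and satellite glia 64 to 69 members were called with 1 library left out, beside 87.5% of all rows. DESeq2 called 68 (36 higher in neurons) beside 85.7%, stricter cells 71 (57) beside 78.3% and no library block 54 (33) beside 85.4%. Small classes limit the rest: smooth muscle had 100 to 174 cells per library before the stricter filter.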
